A study of Sus scrofa with 24 samples.

Results

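The subunits of the mitochondrial respiratory chain and of ATP synthase were examined in subcutaneous adipose tissue of 24 pigs weighing 115 kg. They were found by symbol prefix (NDUFA to NDUFV, SDHA to SDHD, UQCR, COX4 to COX8, ATP5, and CYCS), and each gene was represented by the probe with the highest mean signal. This gave 36 genes on 154 probes, of 5231 named genes on 43603 probes in all. By role they were 9 subunits of complex I, 2 complex I assembly factors that share the NDUFA prefix, 3 subunits of complex II, 2 of complex III, cytochrome c, 9 of complex IV and 10 of complex V. Gene names are those of the array's design, such as ATP5A1 for the gene now called ATP5F1A.

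In all, 3 groups of 8 pigs were measured, with 1 Cy3-labelled array per pig. RFIneg pigs came from a line with low residual feed intake, the feed eaten beyond what growth and maintenance predict, and fed freely. RFIpl pigs came from the high line and also fed freely, whereas RFIplR pigs of the high line received only the amount that low-line pigs ate. RFIneg against RFIpl compares the lines under free feeding, RFIneg against RFIplR compares them at one feeding level, and RFIplR against RFIpl compares feeding levels within the high line. Each group serves in a pair of these comparisons, which are therefore not independent.

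The respiratory chain passes electrons from NADH (complex I) and succinate (complex II) through complex III and cytochrome c to oxygen at complex IV, and complex V uses the proton gradient so formed to make ATP. Most subunits are encoded in the nucleus and a small set in mitochondrial DNA. White adipocytes hold fewer mitochondria than brown ones, and use them for fatty acid synthesis and the supply of glycerol as well as for ATP. In bulk tissue, fewer cells of a type and less RNA per cell cannot be told apart.

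Levels are given as log2 of the background-subtracted intensity relative to the 75th percentile of the array, so 0 is the brightness of that percentile. On 17 arrays that percentile lay at 414 to 663 intensity units and on 7 arrays at 69.4 to 94.4. Of the dim arrays 2 belonged to RFIneg pigs, 2 to RFIpl pigs and 3 to RFIplR pigs. RFIpl 2 carried skeletal muscle transcripts, with a mean centred level of 6.44 over 9 measured muscle markers of 15 listed, against at most 1.01 on the other bright arrays. All 8 adipocyte markers were measured. Their mean centred level was 0.22 ± 0.30 (SD, n = 8) in RFIneg, -0.27 ± 0.39 in RFIpl and 0.06 ± 0.20 in RFIplR, with ranges of -0.35 to 0.48, -0.69 to 0.45 and -0.32 to 0.25. None of the 8 passed the adjusted threshold in the fit described below, and 5, 0 and 2 had an unadjusted p under 0.05 in RFIneg against RFIpl, RFIneg against RFIplR and RFIplR against RFIpl. In a fit with the bright or dim class of each array as an added term (brightness as a block), ADIPOQ, CIDEC, LIPE and PLIN1 were called higher in RFIneg than in RFIpl, and ADIPOQ and PLIN1 higher in RFIplR than in RFIpl, beside 6.63% and 10.3% of all probes. Of 4 endothelial markers that fit called VWF higher in RFIneg than in RFIpl, and in RFIplR against RFIpl it called CDH5 and PECAM1 higher and KDR lower. Of 5 brown or beige markers 3 were measured, with group means between -0.06 and 0.05. The 2 keratinocyte markers measured, of 5 listed, reached 5.17 and 6.62 on RFIpl 8 and RFIpl 7. The part of these markers in the results below was not tested.

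Several probes that lie in coding sequence are shown because their behaviour differed along a single transcript. Each has 60 bases, read 5′ to 3′ from the deposited scanner files, and the number after the gene is the start that those files list, read here as the position in the transcript or clone the probe was designed on. No transcript sequence was used to check that reading, on which the 3′ and 5′ positions given here rest. The capitals mark the longest run, 44 bases, that 2 overlapping SDHA probes share. Most of the bases before it are shared too, but the 1934 probe has an a next to the capitals that the 1932 probe lacks.
SDHA 1934: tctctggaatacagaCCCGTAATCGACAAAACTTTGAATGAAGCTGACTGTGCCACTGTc
SDHA 1932: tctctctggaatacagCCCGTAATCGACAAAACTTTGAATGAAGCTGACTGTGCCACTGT
SDHA 657: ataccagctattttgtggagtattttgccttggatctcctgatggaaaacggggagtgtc
SDHB 780: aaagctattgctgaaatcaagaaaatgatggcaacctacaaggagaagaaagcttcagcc
SDHB 237: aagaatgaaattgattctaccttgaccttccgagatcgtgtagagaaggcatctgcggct
ATP5B 1566: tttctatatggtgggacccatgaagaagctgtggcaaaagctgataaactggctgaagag
ATP5B 568: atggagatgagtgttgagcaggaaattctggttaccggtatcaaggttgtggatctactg
CYCS 340: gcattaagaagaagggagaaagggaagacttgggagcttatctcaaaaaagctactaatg

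Of the 36 genes 35 passed the filter on dim probes, and 33 were well above background on all 24 arrays. NDUFAB1, the mitochondrial acyl carrier protein that is also a complex I subunit, was well above background on 6, 7 and 5 arrays of RFIneg, RFIpl and RFIplR, and the assembly factor NDUFAF4 on 6, 6 and 5. COX8H, the heart and skeletal muscle form of a small complex IV subunit, failed the filter. It was well above background on 1 RFIneg array and 2 RFIpl arrays. Its level was 4.52 on RFIpl 2, the array with muscle transcripts, and -2.04 on RFIpl 1, the next highest. COX7A1, which also predominates in muscle, had a level on RFIpl 2 that was lower than the mean of the other bright arrays (difference -0.11).

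No subunit differed between groups at an adjusted p under 0.05 in any of the 3 comparisons (limma, Benjamini-Hochberg over 28606 probes). Over all probes 0.206%, 0% and 0.297% were called in RFIneg against RFIpl, RFIneg against RFIplR and RFIplR against RFIpl. Unadjusted p-values under 0.05 were found for 2, 0 and 2 members, beside 6.87%, 2.12% and 8.19% of all probes. The standard errors of the members had a median of 0.19 and ran from 0.12 to 0.71. With brightness as a block no member was called in any comparison, beside 6.63%, 0% and 10.3% of all probes. With array weights 3 members were called in RFIneg against RFIpl and 2 in RFIplR against RFIpl, beside 10.7% and 10.3% of all probes.

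**Figure D1:**
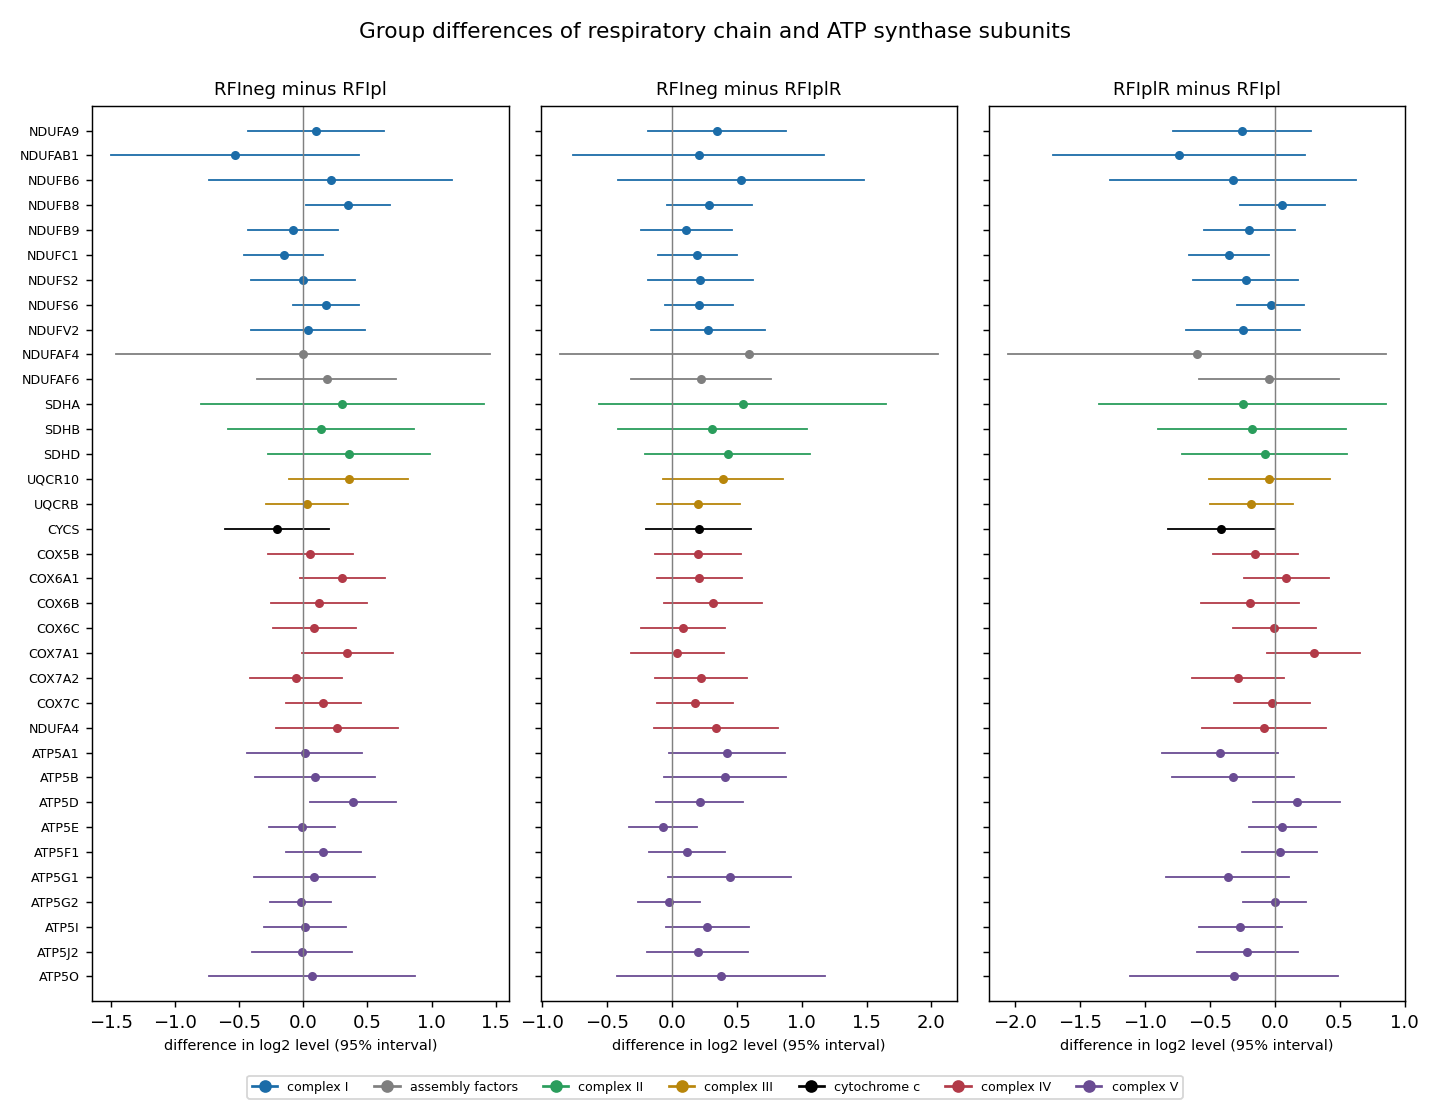
Difference in log2 level (points) with its 95% interval (lines) for the 35 measured subunits, by complex, in each comparison. In RFIneg minus RFIplR 33 of 35 points lie above 0, and all 35 intervals cross 0.

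Between the lines under free feeding, 25 of 35 subunits had a higher mean in RFIneg than in RFIpl, with a median difference of 0.09, a direction that turned under quantile scaling (14 of 35 higher, median -0.03). It also turned with scan day as a block and on the arrays of scan day 1 alone. That day held 5 RFIneg, 3 RFIpl and 3 RFIplR arrays, all of them bright. Over the 4219 measured named genes 53.9% were higher and the median was 0.02. The 2 subunits with an unadjusted p under 0.05 were ATP5D and NDUFB8, neither past the adjusted threshold.

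ATP5D, the delta subunit of the central stalk of ATP synthase, had levels of 5.03, 5.42 and 6.05 (lowest, median, highest) in RFIneg, 4.83, 4.97 and 5.57 in RFIpl, and 4.98, 5.21 and 5.54 in RFIplR. The groups overlapped, although 7 of 8 RFIneg pigs lay above the RFIpl mean. The difference of RFIneg from RFIpl was 0.39 (SE 0.16, adjusted p = 0.589).

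NDUFB8, an accessory subunit of complex I often used to follow its assembly, stood at 4.83, 5.22 and 5.63 in RFIneg and at 4.49, 4.94 and 5.28 in RFIpl. Its difference was 0.35 (SE 0.16, adjusted p = 0.668). Of its 6 probes 4 had this sign. The others were designed on a different clone.

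By complex the median differences of RFIneg from RFIpl were 0.04 in complex I, 0.30 in complex II, 0.19 in complex III, 0.14 in complex IV and 0.04 in complex V. All 3 measured complex II subunits, which link the citrate cycle to the chain, were higher on average in RFIneg, at 0.30 for SDHA, 0.14 for SDHB and 0.35 for SDHD, with standard errors of 0.53, 0.35 and 0.31. This direction depended on the layout of the arrays. With slide or scan day as a block only 1 of the 3 was higher, with medians of -0.109 and -0.106. The medians of complex I (-0.10 and -0.08) and complex V (-0.0003 and -0.01) turned as well under these blocks, while those of complexes III and IV kept their sign. In complex III UQCR10 had a difference of 0.35 and UQCRB of 0.03. In complex IV 7 of 8 were higher, led by COX7A1 (0.34, SE 0.17), the muscle-type form of a small subunit, and COX6A1 (0.30, SE 0.16), the form found in most tissues. COX7A2, the widely expressed counterpart of COX7A1, had a difference of -0.06, and NDUFA4, now counted with complex IV, one of 0.26. In complex V 7 of 10 were higher, with ATP5F1 at 0.16 next after ATP5D, and ATP5A1, the alpha subunit of the catalytic head, stood at 0.01. The assembly factor NDUFAF6 had a difference of 0.18 and NDUFAF4 of -0.0024. The mean level of the complex II subunits had an SD over arrays of 0.81, 0.75 and 0.85 in RFIneg, RFIpl and RFIplR, against 0.42, 0.38 and 0.37 for complex I. These SDs include the gap between bright and dim arrays. On bright arrays alone they were 0.29, 0.40 and 0.21 for complex II, against 0.25, 0.28 and 0.17 for complex I.

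At one feeding level 33 of 35 subunits had a higher mean in RFIneg than in RFIplR, with a median difference of 0.22, beside 54.4% of named genes and a median of 0.03. The sign of the median held under quantile scaling (0.18) and median scaling (0.30). The members are not independent of each other, as described below. The median was 0.22 in complex I, 0.43 in complex II, 0.30 in complex III, 0.21 in complex IV and 0.24 in complex V, and 0.21 for CYCS. All 9 complex I and all 8 complex IV subunits were higher on average, and the exceptions were ATP5E (-0.07) and ATP5G2 (-0.02) of complex V. Counting every probe, 148 of 151 were higher in RFIneg, whereas 48.7% of all kept probes were.

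ATP5G1, one of the genes for the membrane ring that turns as protons pass, had levels of 4.65, 5.41 and 6.04 in RFIneg and 4.28, 4.93 and 5.45 in RFIplR. The difference was 0.45 (SE 0.23, adjusted p = 0.999).

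ATP5A1 ranged from 5.77 through a median of 6.48 to 6.80 in RFIneg and from 5.38 through 5.95 to 6.42 in RFIplR. Its difference was 0.43 (SE 0.22), and 7 of 8 RFIneg pigs lay above the RFIplR mean.

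ATP5B, the catalytic beta subunit, differed by 0.41 (SE 0.23), COX6B by 0.32 (SE 0.18), UQCR10 by 0.39 (SE 0.23) and NDUFB8 by 0.29 (SE 0.16), all with overlapping groups. COX7A1 differed by only 0.04 here.

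Of the 24 arrays RFIplR held 3 dim ones and RFIneg 2, and 30 of 35 subunits read lower on dim arrays, as did 51.1% of all kept probes. With brightness as a block 32 of 35 were still higher in RFIneg, with a median of 0.19, and on the 17 bright arrays alone 34 of 35 were, with a median of 0.22. None was called by limma under either, and neither was any of the 28606 probes. In each fit 1 subunit had an unadjusted p under 0.05, beside 9.49% of all probes with the block and 6.12% on bright arrays. On the arrays of scan day 2 alone the median was 0.01 and 18 of 35 were higher, but there RFIneg had 2 dim arrays and RFIplR 3 dim and 1 bright, so brightness and group were not balanced. On the 7 dim arrays alone 27 of 35 were higher, with a median of 0.10.

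**Figure D2:**
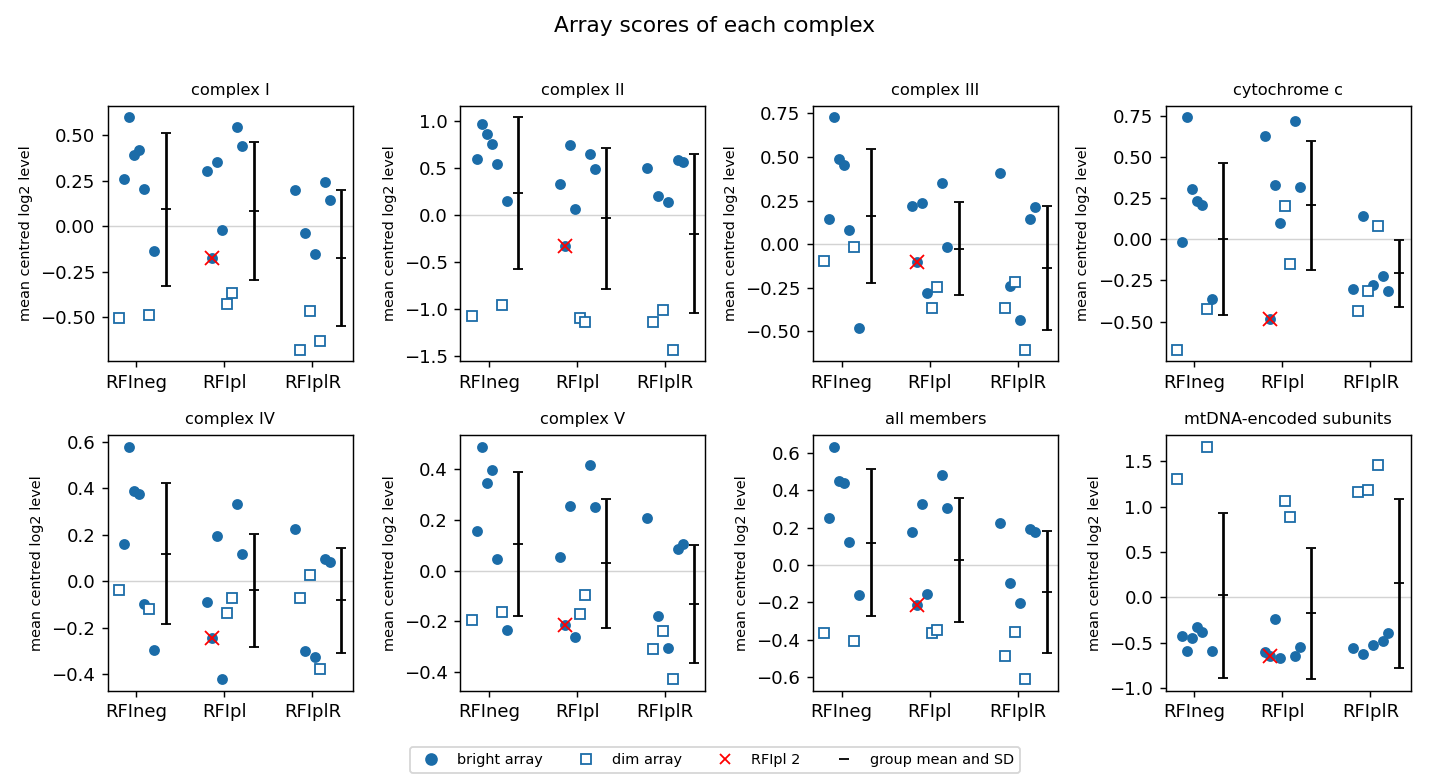
Mean level of the subunits of each complex on each array, centred on the 24-array mean of each gene (log2), by group. Dim arrays (open squares) lie below every bright array for complexes I and II and above every bright array for the mtDNA-encoded subunits, where they stand at 0.89 to 1.66 against -0.67 to -0.24.

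Within the high line, 29 of 35 subunits had a lower mean under restricted feeding, with a median difference of -0.19 (RFIplR minus RFIpl), beside a median of 0.01 over named genes, of which 51.2% were higher. Quantile and median scaling gave -0.23 and -0.22. The median was -0.24 in complex I, -0.18 in complex II, -0.11 in complex III, -0.05 in complex IV and -0.24 in complex V. With brightness as a block it was -0.11 over all subunits, with 21 of 35 lower, and it turned to 0.03 in complex II.

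NDUFC1, an accessory subunit of complex I, had levels of 2.07, 2.34 and 2.78 in RFIplR and 2.42, 2.81 and 3.04 in RFIpl. All 8 RFIplR pigs lay below the RFIpl mean, the highest of them only just, and the groups overlapped. The difference was -0.35 (SE 0.15, adjusted p = 0.477).

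COX7A1 went the other way, with a difference of 0.30 (SE 0.17), whereas COX7A2 stood at -0.28 (SE 0.17). The difference between these forms was not tested. ATP5A1 stood at -0.42 (SE 0.22), ATP5B at -0.32, ATP5G1 at -0.36 and ATP5I at -0.26, while COX6A1 stood at 0.09 and NDUFB8 at 0.06.

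CYCS, cytochrome c, carries electrons from complex III to complex IV and activates caspases when released from mitochondria. At its brightest probe it had levels of 2.82, 3.58 and 4.23 in RFIneg, 3.004, 3.75 and 4.20 in RFIpl, and 3.05, 3.20 and 3.63 in RFIplR. RFIplR had the lowest median and the narrowest range, although the lowest single pig was in RFIneg, and all 8 RFIplR pigs lay below the RFIpl mean. The difference of RFIplR from RFIpl was -0.41 (SE 0.20, adjusted p = 0.596).

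CYCS had 12 probes on one transcript, all lower on average in RFIplR than in RFIpl. Their differences ran from -1.46 to -0.21. The smallest was at the probe shown above at start 340, which was also the dimmest of the 12 (mean level -1.78). None of the 12 was called by limma, with a smallest adjusted p of 0.337. With brightness as a block 6 of the 12 were called lower, where 10.3% of all probes were called and 4.51% were called lower, and none of the 6 was the brightest probe. These 6 were the only calls among the 151 kept probes of all members.

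The probe starting at 482 had the smallest adjusted p (0.0062). Its levels were 0.49, 1.70 and 2.48 in RFIplR and 1.41, 2.87 and 3.54 in RFIpl, which overlapped. Its difference with the block was -0.93.

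RFIpl 2 read low for CYCS, at 0.62 below the mean of the other bright arrays, so leaving it out widens the difference. Without it and without a block the brightest probe stood at -0.51, and 0 of 12 probes were called by limma (smallest adjusted p = 0.371). Without RFIpl 7, the highest RFIpl array at that probe, it stood at -0.34. With RFIpl 2 left out and brightness as a block, an alternative added after the data were seen, 10 of 12 probes were called lower (10.9% of all probes were called, 5.33% lower), and the brightest probe had a difference of -0.48 (adjusted p = 0.0479). With array weights on all arrays 8 of 12 were called, beside 10.3% of all probes. With slide and brightness both as blocks 1 of 12 was called, and on bright arrays alone 0, with a smallest adjusted p of 0.0768, where 3.27% of all probes were called. The 12 probes measure the same 24 pigs and are not replicates.

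**Figure D3:**
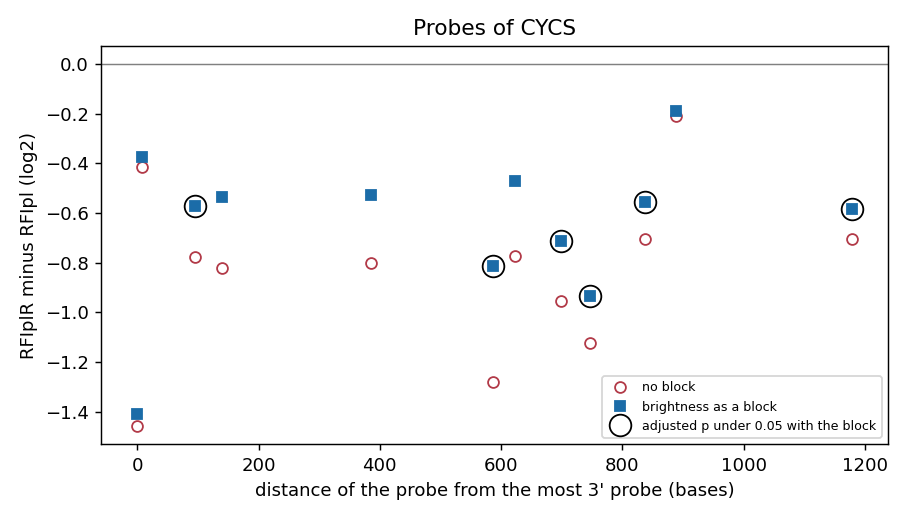
Difference RFIplR minus RFIpl (log2) for the 12 CYCS probes against their distance in bases from the most 3′ probe, without a block (open circles) and with brightness as a block (squares). All 12 lie below 0, and the 6 ringed probes have an adjusted p under 0.05 with the block.

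NDUFAB1 had the largest mean difference of any subunit in this comparison, -0.74 (SE 0.47, adjusted p = 0.858), at a single probe not far above background. It passed the filter through RFIneg and RFIpl but not through RFIplR, so the filter was not neutral to this comparison. Its levels were -4.06, -1.85 and -1.35 in RFIplR and -3.17, -1.24 and -0.75 in RFIpl. The lowest values of each group were those of its dim arrays, at -4.06, -3.29 and -2.82 in RFIplR and -3.17 and -2.83 in RFIpl. On bright arrays its mean was -1.68 ± 0.22 (SD, n = 5) in RFIplR, -1.11 ± 0.43 (n = 6) in RFIpl and -1.61 ± 0.28 (n = 6) in RFIneg. When RFIpl 2 was dropped in the model that also held brightness, NDUFAB1 was called lower in RFIplR (-0.59, adjusted p = 0.0368) and lower in RFIneg (-0.62, adjusted p = 0.0436) than in RFIpl, beside 10.9% and 5.16% of all probes. With RFIpl 2 kept in, the adjusted p was 0.0817 and 0.0819. On bright arrays without RFIpl 2 it was called lower in RFIplR than in RFIpl (-0.70, adjusted p = 0.0413), beside 3.26% of all probes.

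RFIpl 2 touched the complexes unequally. Among 17 bright arrays it had the lowest score for complex I (-0.17), complex II (-0.33), the assembly factors (-0.10) and CYCS (-0.48), but ranked 5 from the lowest for complexes III and IV and 4 for complex V. Without it the median difference of RFIneg from RFIpl with brightness as a block was 0.02 rather than 0.09, and that of RFIplR from RFIpl was -0.16 rather than -0.11.

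The subunits varied together from pig to pig. After each array was centred on the mean of its group and brightness class, the mean pairwise correlation among the 35 was 0.64, against 0.02 over 4199 named genes measured on all arrays, a description over 24 arrays that share labelling and scaling. It was 0.63 against 0.01 without RFIpl 2. Within complexes it was 0.57 in complex I, 0.88 in complex II, 0.80 in complex IV and 0.67 in complex V. COX5B (0.78), NDUFA4 (0.78) and COX7A2 (0.78) followed the other subunits most closely. NDUFAB1 (0.16), NDUFAF4 (0.25) and ATP5G2 (0.25) did so least, with values of 0.04, 0.11 and 0.34 without RFIpl 2. ATP5G2 encodes the same ring subunit as ATP5G1, whose mean correlation was 0.76.

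The reading on dim arrays differed between probes of one transcript. Of 14 genes with at least 4 kept probes on one sequence, 11 had probes whose shift from bright to dim arrays, at equal group, differed by more than 1 on the log2 scale. The SDHA probes at 1934 and 1932, which share most of their bases, were shifted by -2.23 and -2.35, whereas the probe at 657 was shifted by 0.28. In SDHB the probe at 780 was shifted by -2.05 and that at 237 by -0.57. In ATP5B the shift was -0.57 at the 3′ probe, -1.58 at 1566, -2.34 at 1250 and 0.14 at 568. Of the 9 ATP5B probes the one at 1250 had the lowest shift, while in NDUFV2 it went from -0.75 at the 3′ probe to -2.15 at the most 5′ probe.

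Differences between probes in the group comparison were not tested. In ATP5B the difference RFIneg minus RFIplR was 0.41 at the 3′ probe, 0.79 at 1250 and 0.60 at 568, and with brightness as a block 0.34, 0.49 and 0.62. In SDHA it was 0.55 at 1934 (SE 0.53) and 0.44 at 657, and with the block 0.27 and 0.48.

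**Figure D4:**
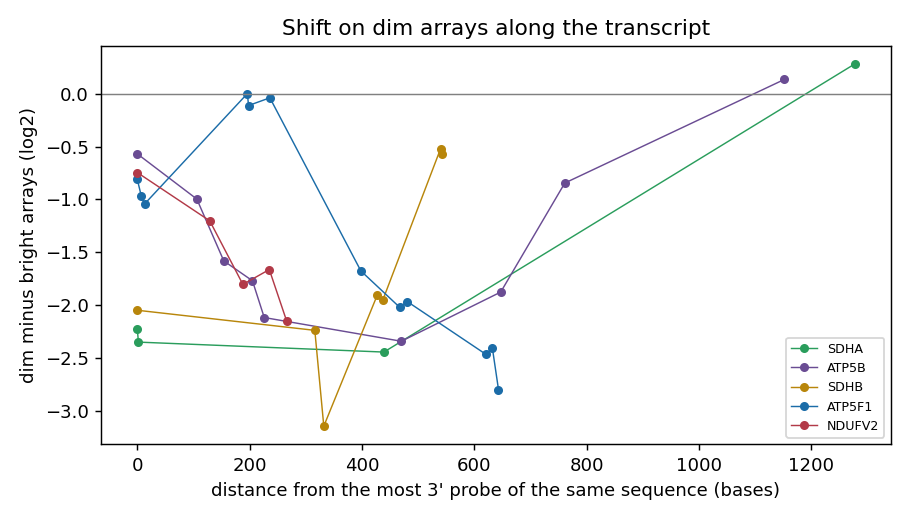
Shift of the log2 level from bright to dim arrays, at equal group, for the kept probes of 5 genes against their distance in bases from the most 3′ probe of the same sequence. ATP5B and SDHA reach -2.34 and -2.44 at some probes and stand at 0.14 and 0.28 at their most 5′ probes.

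The sequence AATAAA, the usual polyadenylation signal, occurred in 12 of the 36 brightest probes (33.3%), in 20.1% of the 154 member probes and in 9.60% of all probes. Its reverse complement TTTATT occurred in 1 of the 36 and in 4.17% of all probes. A match describes the letters of the probe only.

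The 13 subunits encoded in mitochondrial DNA were not among the 36. All 13 had a higher mean in RFIplR than in RFIpl, with a median of 0.31, where 29 of 35 nuclear-encoded subunits were lower. In RFIneg against RFIpl 12 of 13 were higher (median 0.21), and in RFIneg against RFIplR 2 of 13 were (median -0.09). None was called, and unadjusted p-values under 0.05 were found for 1 in RFIneg against RFIpl and 0 in the others. With normexp background correction 12 of 13 were higher in RFIneg than in RFIplR (median 0.23), and the median of RFIplR minus RFIpl was 0.03 with 9 of 13 higher. On bright arrays alone 8 of 13 were higher in RFIplR than in RFIpl (median 0.06) and 11 of 13 higher in RFIneg than in RFIplR (median 0.05). In RFIneg against RFIpl 9 of 13 were higher on those arrays (median 0.11). All 13 read higher on dim arrays, by 0.37 to 5.49. With brightness as a block the median was 0.21 in RFIneg against RFIpl, 0.07 in RFIneg against RFIplR and 0.15 in RFIplR against RFIpl. RFIneg and RFIpl each held 2 dim and 6 bright arrays, so the block left the first of these medians as it was. With the block ATP8 (0.41, adjusted p = 0.0465) and ND5 (0.36, adjusted p = 0.0425) were called higher in RFIneg than in RFIpl, and ND3 (0.28, adjusted p = 0.0496) higher in RFIplR than in RFIpl, beside 6.63% and 10.3% of all probes. ATP8 is a complex V subunit, and ND3 and ND5 belong to the membrane arm of complex I. The difference between the mitochondrial and the nuclear sets was not tested.

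Other mitochondrial genes were described from lists chosen with earlier results of these data known. None of their 38 measured members was called in any comparison without a block, and 2, 0 and 2 had an unadjusted p under 0.05. With brightness as a block 3, 0 and 3 of the 38 were called (7.89%, 0% and 7.89%), where 6.63%, 0% and 10.3% of all probes were. Of 9 citrate cycle genes measured, 9 were higher on average in RFIneg than in RFIplR (median 0.52, and 0.29 with the block). With brightness as a block CS, the citrate synthase that starts the cycle, was called higher in RFIneg than in RFIpl (0.68, adjusted p = 0.00624), and IDH2, the NADP-dependent isocitrate dehydrogenase, was called lower in RFIneg (-0.44, adjusted p = 0.0122) and in RFIplR (-0.47, adjusted p = 0.00522) than in RFIpl. Among 3 further assembly factors TMEM70, needed for ATP synthase assembly, was called higher in RFIneg than in RFIpl with the block (0.37, adjusted p = 0.0268). Of 13 mitochondrial ribosome genes 11 were higher in RFIneg than in RFIplR (median 0.22, and 0.10 with the block and 0.07 on bright arrays, with 9 of 13 higher in both), and with the block MRPL2 (-0.45, adjusted p = 0.026) was called lower and MRPL3 (0.38, adjusted p = 0.0203) higher in RFIplR than in RFIpl. Of 8 import and carrier genes VDAC1, the outer membrane channel, had the smallest p in RFIneg against RFIpl (0.50, SE 0.22, adjusted p = 0.647). The 4 measured regulators of mitochondrial biogenesis had a median difference of 0.01, 0.15 and -0.15, which with the block was 0.01, -0.05 and 0.06, so the latter pair changed sign. PPARGC1A, their best known member, had differences of -0.07, -0.22 and 0.15 without the block. ETFA, which passes electrons from fatty acid oxidation, was the only other electron donor measured and had differences of 0.16, 0.19 and -0.03.

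**Figure D5:**
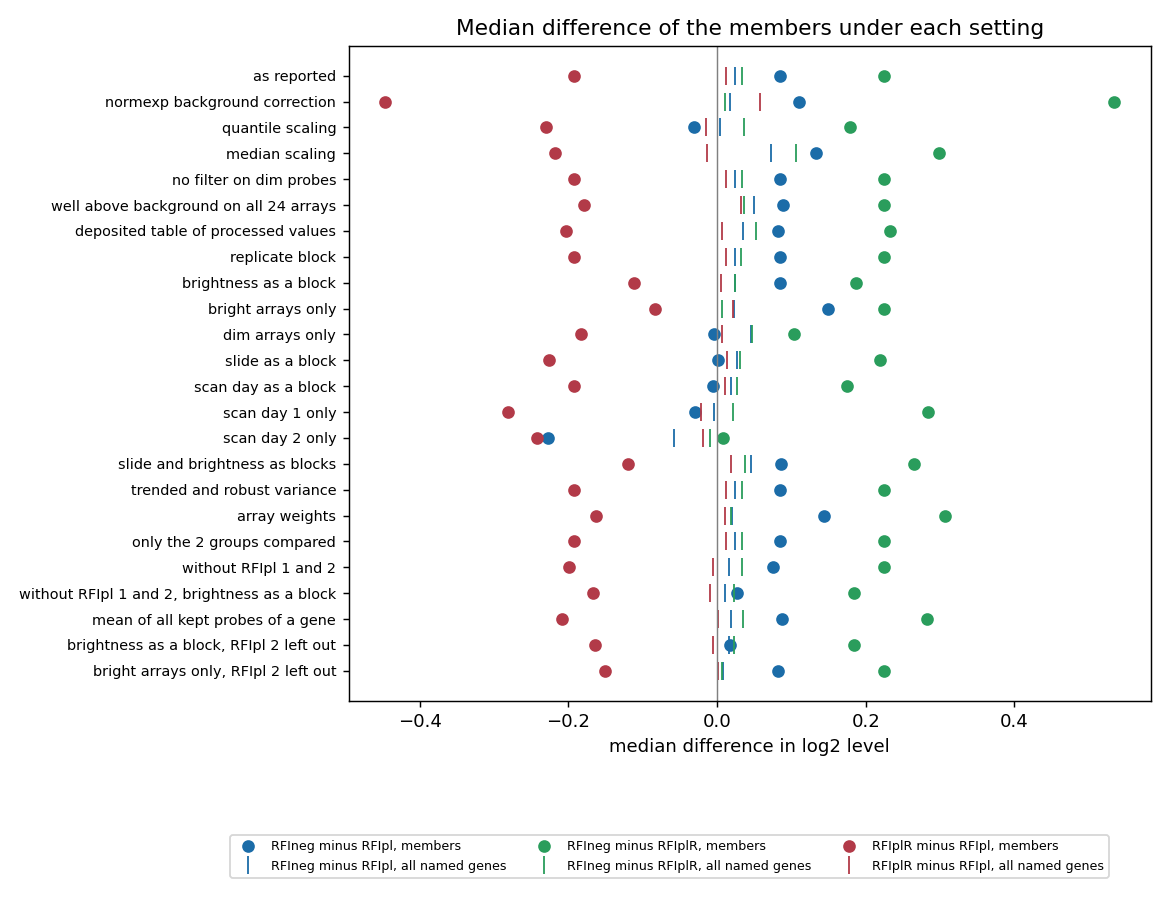
Median difference in log2 level of the members (points) and of all named genes (bars) under each processing setting. The RFIneg minus RFIplR medians (green) run from 0.01 to 0.53 and the RFIplR minus RFIpl medians (red) from -0.45 to -0.08, while those of RFIneg minus RFIpl (blue) lie on both sides of 0.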

How the data were processed

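Per the file headers, the authors' scanner files hold spot intensity values from Agilent Feature Extraction 10.7.3.1, background-subtracted and not scaled between arrays. The deposited series-wide table has log2 values of the same arrays, found here to be centred on each array's median. The submitters' processing notes name R 2.10.0. Processed intensities were taken as log2 minus each array's 75th percentile. A probe was kept when well above background on at least 6 of 8 arrays of a group and missing on at most 6 arrays, which left 28606 of 43603. Symbols came from the files and from RefSeq's pig genes of assembly Sscrofa11.1, used for names only, and 11907 probes were named. A single limma 3.58.1 model over 24 arrays (R 4.3.3, version 1.17.8 of data.table) gave the 3 comparisons, with two-sided p-values, Benjamini-Hochberg adjusted across the kept probes, and 0.05 as the threshold. It was tested on simulated independent values that held no shift between bright and dim arrays. How it behaves under such a shift was not tested. Python 3.11.15, pandas 2.3.3, numpy 2.4.6 and matplotlib 3.10.9 were used for names and figures. The labels do not say more about the pigs than their group, tissue, body weight and replicate number. The p-values set each difference against the spread between these samples. Without a block that spread includes the shift between bright and dim arrays. The number of arrays limits the precision.

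Members, lists and tests were chosen with earlier results of these data known. Genes were named when called, when among the 2 smallest p-values of their complex, when called with brightness as a block, or as members of a fixed panel. CYCS probes, NDUFAB1 beyond its p and the probes shown were chosen after their values were seen. The alternatives were other background correction, scaling, filters, the deposited values, blocks for replicate number, brightness, slide and scan day, subsets of arrays (leaving out RFIpl 1 and 2 together among them), array weights, a trended variance and leaving out each array. 2 alternatives that leave out RFIpl 2 alone, with the block or on bright arrays, were added after the data were seen.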

Additional observations from a re-analysis of the deposited data

Results flagged for a closer look

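Of 90 groups of 8 arrays tested over 22 named subunits and the scores of the complexes, 1 held an array far from the others, where about 1 in 20 would by chance. In ATP5I, a small membrane subunit of ATP synthase, RFIplR 1 stood at 6.13, with the next array at 5.81 and the lowest at 5.52.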

How the results depend on the processing

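With each of 24 arrays left out in turn, no subunit was called in any comparison, and the median over subunits ran from 0.01 (without RFIneg 3) to 0.17 (without RFIneg 1) in RFIneg minus RFIpl, from 0.18 to 0.31 in RFIneg minus RFIplR and from -0.26 to -0.12 in RFIplR minus RFIpl. Over 47 alternatives the sign of that median was kept in 42, 47 and 47. In RFIneg minus RFIpl it turned with the dim arrays alone (-0.00), quantile scaling (-0.03), scan day as a block (-0.01), scan day 1 alone (-0.03) and scan day 2 alone (-0.23). On scan day 2 RFIneg had 2 dim arrays, RFIpl 2 dim and 2 bright and RFIplR 3 dim and 1 bright, so that subset does not compare groups at equal brightness. It also moved the medians of RFIneg minus RFIpl to -0.36 in complex I, -1.08 in the assembly factors, -0.68 in complex II and -0.76 for CYCS, and those of RFIneg minus RFIplR to -0.57 in the assembly factors and -0.30 for CYCS, which on dim arrays alone stood at -0.32. In complex II RFIneg minus RFIpl was 0.05 on dim and 0.39 on bright arrays alone. Normexp background correction moved complexes IV and V to 0.53 and 0.60 in RFIneg minus RFIplR and to -0.33 and -0.53 in RFIplR minus RFIpl. The mean of all kept probes moved CYCS to 0.65 in RFIneg minus RFIplR and to -0.84 in RFIplR minus RFIpl. Array weights gave 3 called subunits in RFIneg minus RFIpl, ATP5D, COX7A1 and NDUFAB1, and 2 in RFIplR minus RFIpl, CYCS and NDUFAB1, beside 10.7% and 10.3% of all probes. Brightness as a block without RFIpl 2 gave 1 and 2 (5.16% and 10.9% of all probes), and bright arrays without RFIpl 2 gave 0 and 1 (0% and 3.26%). The cause was not tested.

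Of 24 pairs of samples with the same replicate number 12 correlated above 0.1, and none of the 24 arrays correlated best with its own number. The median correlation was -0.08, against 0.50 for other pairs. Several replicate numbers hold both bright and dim arrays, so these values cannot show whether the numbers pair pigs. With the replicate block no subunit was called and the medians over subunits were 0.09, 0.22 and -0.19, and over all probes 0, 0 and 2 were called. Over all probes the counts called, 59, 0 and 85, were 1897, 0 and 2954 with brightness as a block, 3067, 4 and 2941 with array weights, 296, 0 and 936 on bright arrays alone, 0, 0 and 4 with normexp, 3, 0 and 20 with median scaling, 0, 0 and 25 with slide as a block, 47, 0 and 258 with scan day as a block, 419, 0 and 1691 with slide and brightness as blocks, 2, 0 and 38 without the filter, and 0, 0 and 26 with only the groups compared. Dim arrays, where 43.1% of probes or more were well above background, limit what can be read from the weakest subunits, NDUFAB1 and NDUFAF4.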
